A study of Mus musculus with 20 samples.

Results

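The interferon-inducible immunity GTPases described here were 7 genes, Irgm1, Irgm2, Igtp, Iigp1, Gbp2, Gbp3 and Gbp7, out of 18193 genes that had at least 1 probe set assigned to a single symbol. They were taken by name, as every probe set whose only gene symbol in the platform annotation was a member. This gave 10 probe sets, a pair each for Iigp1, Gbp2 and Gbp7 and 1 for each other gene, and all 10 passed the filter on low signal.

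The study measured liver RNA of male C57BL/6J mice that had lived under continuous low dose-rate gamma rays, on 20 Affymetrix expression arrays. Mice entered at 8 weeks of age and were killed as soon as irradiation ended. In experiment 2 irradiation lasted 401 days, at 0.05 mGy/day (low, 20 mGy in all), 1.00 mGy/day (medium, 401 mGy) or 20.0 mGy/day (high, 8015 mGy). In experiment 1 it lasted 485 days, at 0.042 mGy/day (low, 20.6 mGy), 0.858 mGy/day (medium, 416 mGy) or 16.6 mGy/day (high, 8030 mGy). Each irradiated group held 3 mice on 1 array each. The unirradiated control of each experiment was a single array of pooled RNA, from 6 mice in experiment 2 and 3 mice in experiment 1, so a control had no spread of its own.

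The immunity GTPases belong to cell-autonomous defence. Interferon gamma, and to a lesser degree type I interferons, switch them on through gamma-activated sequences and interferon-stimulated response elements in their promoters. The products gather on the membranes of vacuoles that enclose intracellular parasites and bacteria and help to break them. In mouse liver Iigp1 is known to be made constitutively from a promoter of its own, so that its RNA is abundant without infection.

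Irgm1, Irgm2 and Igtp lie on chromosome 11, and Gbp2, Gbp3 and Gbp7 on chromosome 3 (RefSeq, GRCm38.p6). Promoter windows from 250 bases before to 50 bases after the annotated start were searched for 6 of the genes, Iigp1 being left out. There were 7 windows in all because Gbp3 has a pair of starts. The interferon-stimulated response element, searched on both strands as GAAA, any 2 bases and GAAA again, was found in 6 of the 7 windows, at least once for each of the 6 genes, against 3.43% of all 32817 windows in the RefSeq table. The stretches that hold it are shown because they are what the 6 genes have in common. Each is written on the strand of its gene with 20 bases on either side, and capitals mark the element, which reads on the opposite strand for the guanylate-binding protein genes and so appears there as TTTC, 2 bases and TTTC.
Irgm1, chr11:48871415-48871470, minus strand: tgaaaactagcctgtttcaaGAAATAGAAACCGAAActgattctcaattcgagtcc
Irgm2, chr11:58214893-58214942, plus strand: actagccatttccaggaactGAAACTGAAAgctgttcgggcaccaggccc
Igtp, chr11:58199502-58199551, plus strand: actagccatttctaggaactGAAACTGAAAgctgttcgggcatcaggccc
Gbp2, chr3:142620584-142620633, plus strand: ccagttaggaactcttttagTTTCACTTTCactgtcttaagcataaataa
Gbp3, chr3:142559979-142560034, plus strand: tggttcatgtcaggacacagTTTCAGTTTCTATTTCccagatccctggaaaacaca
Gbp7, chr3:142530263-142530312, plus strand: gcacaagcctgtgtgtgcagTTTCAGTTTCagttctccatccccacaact

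All 8 matches lay between 64 and 15 bases before the start, and in Irgm1 and Gbp3 a pair of matches overlapped. The Gbp3 window at the other start held none of these letters. A gamma-activated sequence, searched as TTCNNNGAA on both strands (it reads the same on either), was found in 3 of the 7 windows (Irgm2, Igtp and Gbp7), against 8.29% of all windows. The neighbouring genes Igtp and Irgm2 had nearly the same promoter: 222 of the 300 bases fell in 7 identical blocks of at least 8 bases, the longest of 61 bases. These matches are descriptions of letters in a window and were not tested for binding.

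**Figure D1:**
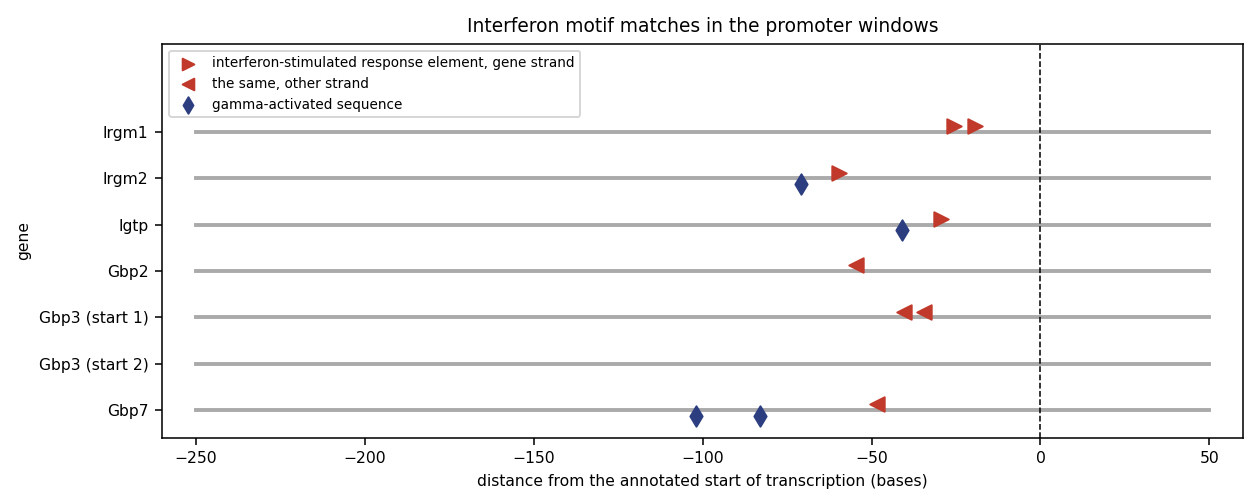
Motif matches in the 7 promoter windows of 6 immunity GTPase genes, by distance from the annotated start in bases. Triangles mark the interferon-stimulated response element and point along the strand it was read on, diamonds mark the gamma-activated sequence, and the 8 triangles lie between 64 and 15 bases before the start.

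Signals below are the authors' MAS5 values, linear and in arbitrary units, which can be compared between arrays for 1 probe set but not between probe sets. Differences are log2 differences with their standard error (SE) by limma, from a fit of the 20 arrays that held terms for dose level and for experiment. A call is an adjusted p below 0.05 after Benjamini-Hochberg adjustment over the 22519 probe sets tested. High dose-rate livers had the highest group mean in both experiments for Irgm1, Irgm2, Igtp and Gbp3, and for 1 of the 2 probe sets of Iigp1 and of Gbp7. No member was called between dose levels.

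The regulatory immunity-related GTPases come first. Irgm1 protects mice from mycobacteria and other intracellular bacteria and keeps the effector GTPases inactive on the cell's own membranes. In experiment 2 its probe set 1418825_at read 1238 in the pool, 1170, 1165 and 1036 in low, 1479, 1290 and 1763 in medium, and 1692, 1450 and 1730 in high dose-rate livers. In experiment 1 it read 1408 in the pool, 1874, 1258 and 1994 in low, 1455, 1284 and 1671 in medium, and 2170, 3261 and 1804 in high dose-rate livers. All 6 high dose-rate mice stood above their own pool, and in experiment 2 the high and the low mice did not overlap. In experiment 1 the first and the third low mice exceeded the third high mouse. The group means ran low, pool, medium, high in experiment 2 and pool, medium, low, high in experiment 1, and medium overlapped with high in experiment 2 and with low in experiment 1. High minus low was 0.50 ± 0.15 (adjusted p = 0.201), with 0.53 in experiment 2 and 0.48 in experiment 1. High minus control was 0.56 ± 0.21 (adjusted p = 0.477).

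Irgm2, a second regulator of the same subfamily, gave 1350 in the experiment 2 pool, 1040, 1154 and 785 in low, 1317, 1171 and 1474 in medium, and 1178, 1597 and 1452 in high dose-rate livers (1417793_at). Its experiment 1 signals were 795 in the pool, 1169, 1031 and 1132 in low, 859, 762 and 864 in medium, and 1378, 2434 and 1343 in high dose-rate livers. It was the only member for which all 3 high mice stood above all 3 low mice in both experiments, a pattern seen in 0.688% of all probe sets. The pool was near the high mean in experiment 2, and in experiment 1 it was below all irradiated mice but the second medium one. The high livers exceeded the low ones by 0.54 ± 0.18 (adjusted p = 0.255), and high minus medium was 0.54 ± 0.18 (adjusted p = 0.999), with 0.09 in experiment 2 and 0.99 in experiment 1.

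Igtp, also called Irgm3, completes the regulatory group and is needed for resistance to Toxoplasma. Its experiment 2 signals were 1759 in the pool, 1584, 1649 and 1423 in low, 1992, 2033 and 2231 in medium, and 2459, 1994 and 2654 in high dose-rate livers (1417141_at). The experiment 1 signals were 1414 in the pool, 1847, 1653 and 2356 in low, 1256, 1110 and 1730 in medium, and 2332, 3573 and 1984 in high dose-rate livers. In experiment 2 the medium and the high mice all stood above the low mice, while in experiment 1 the low mice lay between medium and high and overlapped with both. The high minus low difference was 0.50 ± 0.17 (adjusted p = 0.273), with 0.60 in experiment 2 and 0.40 in experiment 1. High minus control was 0.63 ± 0.24 (adjusted p = 0.476), and all 6 high mice stood above their pool.

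Iigp1, on chromosome 18, is the effector of the set, which loads onto parasite vacuoles and opens them. Its high-signal probe set 1419043_a_at read 23716 in the experiment 2 pool, 17948, 23435 and 17396 in low, 22738, 18516 and 23162 in medium, and 21238, 18670 and 20543 in high dose-rate livers. In experiment 1 it read 20370 in the pool, 21824, 20736 and 19452 in low, 18390, 19743 and 20159 in medium, and 22946, 28301 and 23579 in high dose-rate livers. The 3 high mice exceeded all other arrays in experiment 1, and in experiment 2 they lay below the pool and overlapped with low and medium. In experiment 1 high stood wholly above low in 7.05%, above medium in 4.59% and above the pool in 28.4% of all probe sets. The share with all of these was not counted. The other probe set, 1419042_at, followed it across the 20 arrays (r = 0.869 after centring on the experiment means). It averaged 5153 ± 736 in low, 5537 ± 882 in medium and 5686 ± 127 in high dose-rate livers of experiment 2, and 6610 ± 855, 5704 ± 563 and 7927 ± 1125 in the same order in experiment 1 (SD, n = 3 each), with pools at 5632 and 6441. Between high and low the difference was 0.16 ± 0.09 (adjusted p = 0.591) for 1419043_a_at and 0.21 ± 0.10 (adjusted p = 0.499) for 1419042_at, the narrowest errors among the 10 probe sets.

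The guanylate-binding proteins are larger GTPases of the same response. Gbp2, which moves to Toxoplasma vacuoles, read 306 in the experiment 2 pool, 155, 228 and 180 in low, 325, 322 and 307 in medium, and 363, 386 and 353 in high dose-rate livers (1418240_at). In experiment 1 it read 199.5 in the pool, 758, 238 and 474 in low, 213, 240 and 375 in medium, and 417, 364 and 407 in high dose-rate livers. The 3 dose levels did not overlap in experiment 2, where the signals stood in the order of the dose. Medium stood wholly above low there in 7.43% of all probe sets and high above medium in 5.84%, the share with both not being counted. In experiment 1 the first low mouse had the highest Gbp2 signal of the series and low had the highest mean. High minus low was accordingly 0.96 ± 0.29 in experiment 2 and -0.16 ± 0.29 in experiment 1, and 0.40 ± 0.27 over both (adjusted p = 0.631), or 0.67 without that mouse. The same liver had a summed signal of 3620 over 6 neutrophil markers, against 515 to 1774 on the other 19 arrays, and whether this bears on its Gbp2 signal was not tested. The second probe set, 1435906_x_at, whose suffix marks probes that can bind related transcripts, ranged from 78.7 to 564 and gave a high minus low difference of 0.07 ± 0.32 (adjusted p = 0.962).

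Gbp3 had 215 in the experiment 2 pool, 231, 234 and 192 in low, 225, 184 and 140 in medium, and 411, 164 and 379 in high dose-rate livers (1418392_a_at). Its experiment 1 signals were 242 in the pool, 333, 198 and 394 in low, 194, 230 and 299 in medium, and 668, 624 and 245 in high dose-rate livers. In each experiment 2 high mice stood far above all others and the remaining one fell among the medium mice. The high minus medium difference, 0.83 ± 0.25, was the largest of any member in that comparison (adjusted p = 0.999), with 0.69 in experiment 2 and 0.96 in experiment 1. Against low it was 0.54 ± 0.25 (adjusted p = 0.458).

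Gbp7, known in mouse macrophages for a part in assembling the phagocyte oxidase, read 615 in the experiment 2 pool, 579, 507 and 397 in low, 599, 592 and 565 in medium, and 621, 662 and 620 in high dose-rate livers (1434380_at). In experiment 1 it read 645 in the pool, 770, 669 and 789 in low, 626, 491 and 650 in medium, and 771, 1214 and 698 in high dose-rate livers. High stood above medium with no overlap in experiment 2 (5.84% of all probe sets) and in experiment 1 (4.59%), the share with both not being counted. The difference was 0.34 ± 0.14 over both (adjusted p = 0.999). High minus low was 0.30 ± 0.14 (adjusted p = 0.473). The second probe set, 1425156_at, averaged 196 ± 60 in low, 247 ± 51 in medium and 227 ± 22 in high dose-rate livers of experiment 2 with the pool at 349, and 384 ± 42, 368 ± 32 and 495 ± 131 in experiment 1 with the pool at 274 (SD, n = 3 each). All 9 irradiated mice of experiment 2 were below their pool on this probe set, and all 9 of experiment 1 above theirs. Taken 1 level at a time, 10.9% (low), 10.2% (medium) and 10.7% (high) of all probe sets were separated from the pools in opposite directions.

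**Figure D2:**
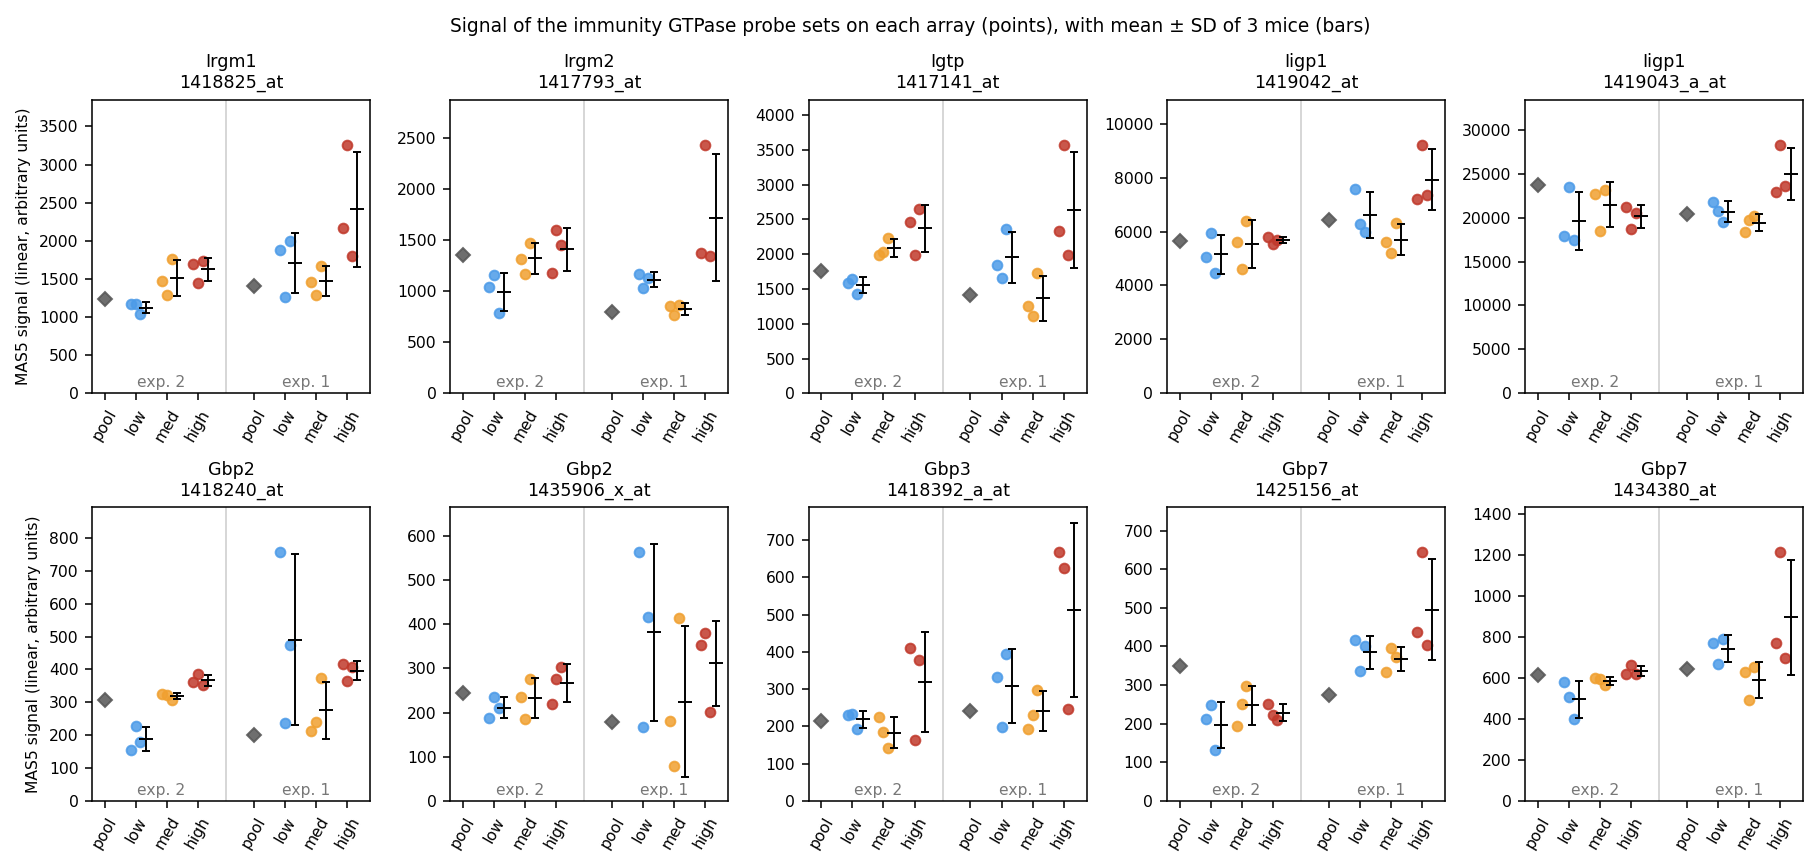
MAS5 signal (linear axis from 0, arbitrary units) of the 10 immunity GTPase probe sets on each of 20 arrays, by dose level, with experiment 2 left and experiment 1 right in each panel. Points are single mice, diamonds are the pools and bars are the mean ± SD of 3 mice, and the high mouse at 3261 for Irgm1 and 3573 for Igtp is the same liver.

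Over both experiments, all 10 probe sets were higher at the high dose-rate than at either lower one, but none was called. High minus low was above 0 for 10 of 10 probe sets with a median of 0.351, whereas 50.9% of all probe sets were above 0. By limma, 0 of 10 were called, against 0.0178% of all probe sets, and 5 of 10 had an unadjusted p below 0.05 (Irgm1, Irgm2, Igtp, Gbp3 and 1 probe set of Gbp7), against 10.3%. Probe sets of 1 gene, and members that move together, are not independent, and the members were chosen with earlier results of these data known. These counts therefore only describe the list. Within experiment 2 high minus low was above 0 for 10 of 10 probe sets (median 0.398), and within experiment 1 for 8 of 10 (0.299). All 3 high mice stood above all 3 low mice for 5 of 10 probe sets in experiment 2 (7.19% of all) and for 2 of 10 in experiment 1 (7.05%).

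High minus medium over both experiments gave the same sign for 10 of 10 probe sets, with a median of 0.385. None was called, against 0.0% of all probe sets, and 6 of 10 had an unadjusted p below 0.05, against 3.93%. The experiments differed: the median was 0.113 in experiment 2, with 8 of 10 above 0, and 0.62 in experiment 1, with 10 of 10. Unadjusted p by limma was below 0.05 for 0 of 10 in experiment 2 (4.81% of all) and 7 of 10 in experiment 1 (4.25%). High mice stood wholly above medium mice for 2 of 10 probe sets in experiment 2 (5.84% of all) and for 7 of 10 in experiment 1 (4.59%), the exceptions in experiment 1 being Gbp2 and Gbp3.

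Against the pools, high minus control over both experiments was above 0 for 10 of 10 probe sets with a median of 0.484. None was called, against 0.0577% of all probe sets, and 3 (Irgm1, Irgm2 and Igtp) had an unadjusted p below 0.05, against 7.96%. Within experiment 2 the median was 0.081 with 8 of 10 above 0 (49.8% of all). Within experiment 1 it was 0.766 with 10 of 10 above 0 (50.2%). Every high mouse exceeded its pool for 4 of 10 probe sets in experiment 2 (25.8% of all), for 10 of 10 in experiment 1 (28.4%) and for 4 of 10 in both (8.57%), namely Irgm1, Igtp and 1 probe set each of Gbp2 and Gbp7. The value rested on the single pools: the median of the 10 differences was 0.12 without the experiment 1 pool and 0.717 without the experiment 2 pool. With the pools weighted by their number of mice, Irgm1 at 0.54 (adjusted p = 0.0331) and Igtp at 0.60 (adjusted p = 0.0353) were called, among 855 probe sets in place of 13.

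**Figure D3:**
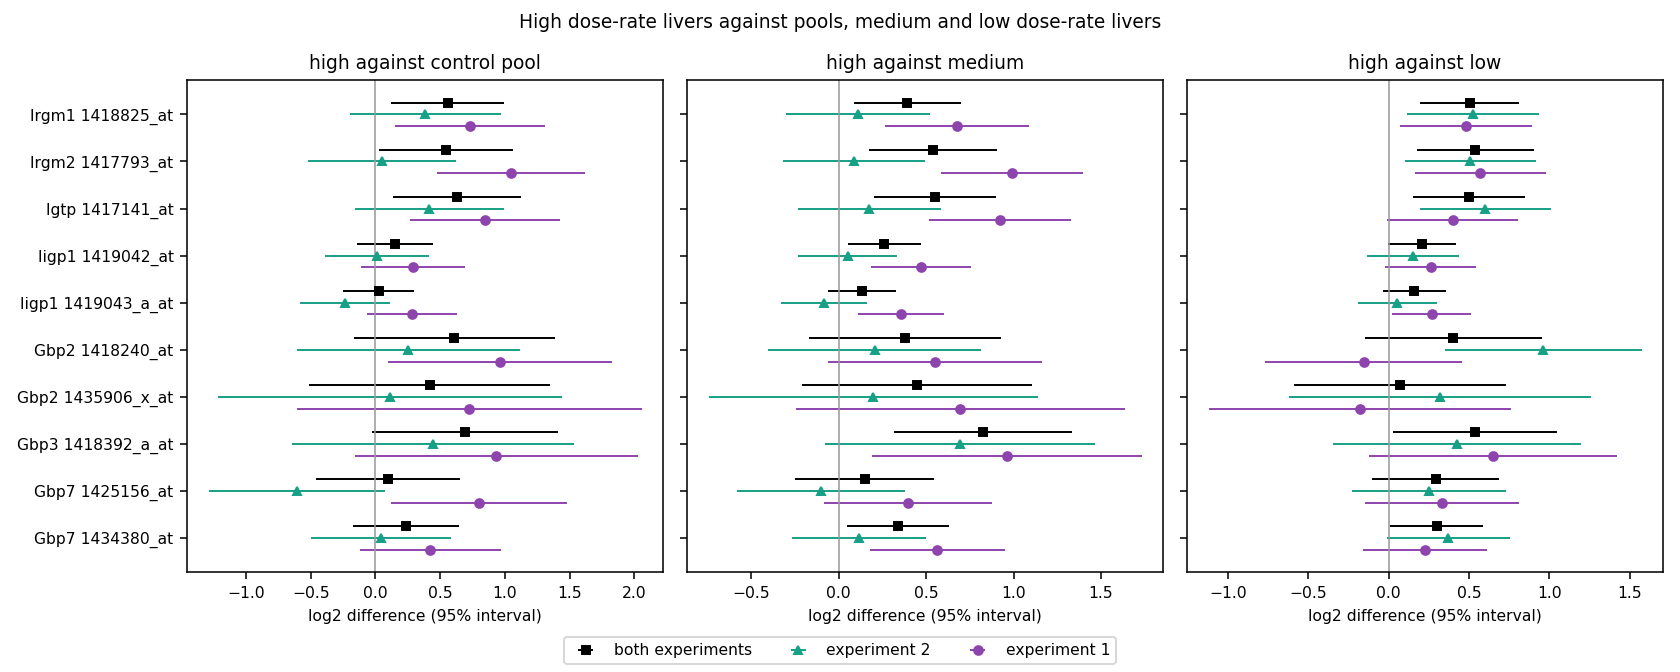
Log2 difference of high dose-rate livers from the control pools, medium and low dose-rate livers for the 10 probe sets, with 95% intervals from limma. Squares are both experiments, triangles experiment 2 and circles experiment 1, and all 30 squares lie above 0, while no difference passed the adjusted threshold.

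Medium and low dose-rate livers showed no common direction against the pools. Medium minus control had a median of -0.0382 with 4 of 10 above 0, 0 called against 0.0355% of all and 0 with an unadjusted p below 0.05 against 6.56%. Low minus control had a median of 0.0318 with 6 of 10 above 0, 0 called against 0.0% and 0 unadjusted against 4.16%. The low mice stood on opposite sides of the pool in the 2 experiments. They were all below it for 8 of 10 probe sets in experiment 2 (21.4% of all) and all above it for 5 of 10 in experiment 1 (24.7%).

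Medium minus low likewise had a median near 0, at -0.0203, with 0 called against 0.0% of all and 0 unadjusted against 7.85%, but it was made of opposite values. In experiment 2 the median was 0.303, and all medium mice stood above all low mice for Irgm1, Irgm2, Igtp and Gbp2 (4 of 10 probe sets, against 7.43% of all). In experiment 1 the median was -0.325, and all medium mice stood below all low mice for Irgm2 and 1 probe set of Gbp7 (2 of 10, against 5.16%).

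The difference of each contrast between the experiments was tested in its own right, as experiment 2 minus experiment 1, and no member was called in any of the 6. For medium minus low the median of this difference was 0.603 and 5 of 10 had an unadjusted p below 0.05 (8.38% of all, 0.0% called), with Igtp at 0.95 ± 0.27 (adjusted p = 0.332) and Gbp2 1418240_at at 1.47 ± 0.41 (adjusted p = 0.312). Leaving out each array in turn, the Gbp2 difference ran from 1.08 to 1.90, with adjusted p by limma from 0.0404 to 0.589. It was lowest without the first low mouse of experiment 1. It was highest, and called among 15 of all probe sets, without the second low mouse of experiment 1. For high minus medium the median was -0.472 with 4 of 10 unadjusted (5.02% of all, 0.0% called), and for high minus low it was -0.00736 with 1 of 10 unadjusted, Gbp2 1418240_at (7.04% of all, 0.00444% called). Against the pools, 3 of 10 were unadjusted for high (5.08% of all, 0.0311% called), 0 of 10 for medium (4.18%, 0.0222% called) and 3 of 10 for low (4.49%, 0.0% called).

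Experiment itself was the only term with calls. Taken over all dose levels, 4 of 10 probe sets were lower in experiment 2 than in experiment 1, against 42.2% of all probe sets called in either direction and 18.4% called lower. A count of 4 in 10 is near the share called in either direction and above the share called lower. It is not read as a result about the members. Gbp7 fell by 0.76 ± 0.15 on 1425156_at (adjusted p = 0.0003) and by 0.32 ± 0.11 on 1434380_at (adjusted p = 0.0218). Irgm1 fell by 0.34 ± 0.12 (adjusted p = 0.0218), and Iigp1 fell by 0.28 ± 0.08 on 1419042_at (adjusted p = 0.00583) while its other probe set differed by -0.05 ± 0.07. Once each array was centred on its own median, Gbp7 1425156_at was the only call left. Duration, age at killing, dose-rate and pool size differed together between the experiments. They cannot be told apart from each other or from any batch of mice or arrays. The ratio of 3' to 5' Gapdh signal, a measure of RNA integrity and labelling, lay between 0.871 and 0.993 in experiment 2 and between 0.69 and 0.769 in experiment 1, and its part in these calls was not tested.

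The same few livers carried many of the extremes. The second high mouse of experiment 1 had the highest signal of its experiment for 7 of 10 probe sets, with Irgm1 at 3261, Irgm2 at 2434 and Igtp at 3573. Without it, high minus low was 0.38 for Irgm1, 0.38 for Irgm2 and 0.37 for Igtp, and the median over the 10 probe sets was 0.278. Its summed signal over 31 type I interferon target genes was 50730, against 16370 to 33120 on the other 19 arrays. At the other end, the third low mouse of experiment 2 had the lowest signal of its experiment for 7 of 10 probe sets, and without it the median of high minus low was 0.249.

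**Figure D4:**
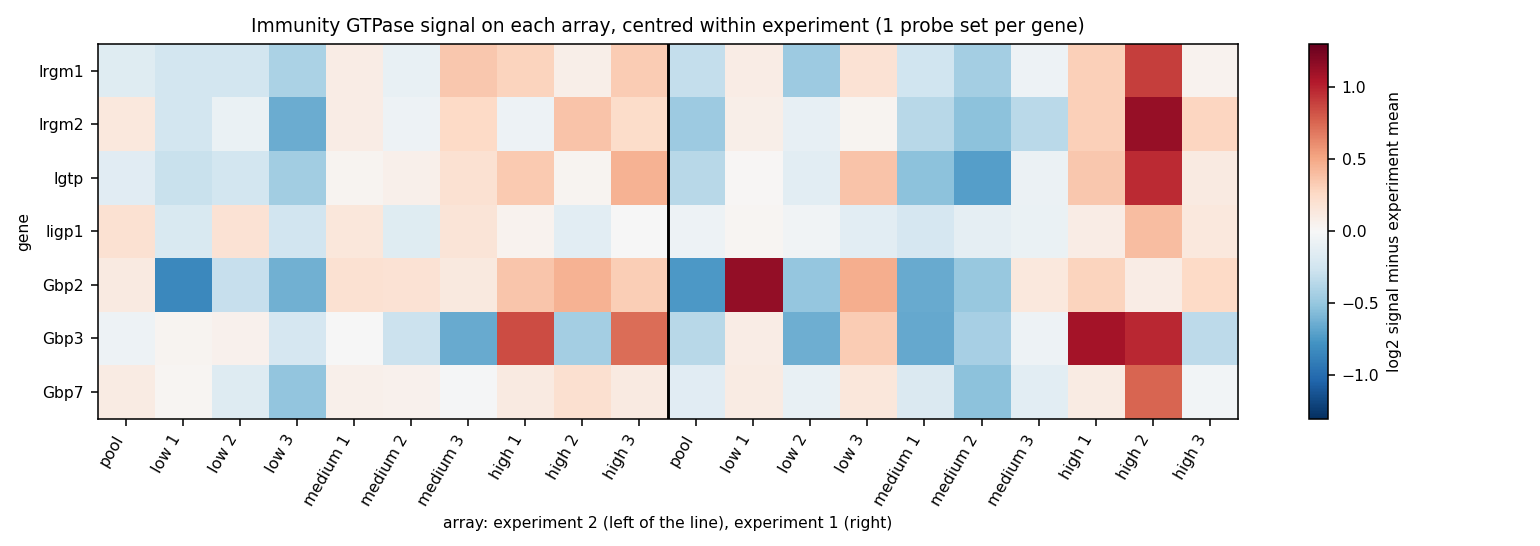
Log2 signal of the 7 genes on 20 arrays, 1 probe set per gene, as the deviation from the mean of the experiment (colour scale from -1.3 to 1.3). Rows are genes, columns are arrays with experiment 2 left of the line, and all 7 genes are above the mean in 3 columns, those of the first and second high mice and the first low mouse of experiment 1.

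The signals of some members also went together among mice of 1 group. With each gene centred on its group mean over the 18 irradiated mice, all 21 pairs of members had a positive Pearson correlation, from 0.12 (Irgm2 and Gbp2) to 0.884 (Irgm1 and Igtp), with a median of 0.436. Within experiment 1 all 21 were positive (median 0.572), but within experiment 2 (median 0.287) 5 were negative, the lowest Irgm2 and Gbp3 at -0.359. Of the correlations over both experiments, 2 were negative without the 2 mice farthest from the median of the pair's first gene. Mice that lay far out only in the second gene stayed in. By exact permutation within groups, adjusted over the 21 pairs, 5 pairs passed at 0.05 for r. The test was two-sided for r but counted only the upper tail for rho, so the p values for rho are one-sided. Irgm1 and Igtp had r = 0.884 (two-sided) and Spearman rho = 0.874 (one-sided), each with exact permutation p = 0.000129 and adjusted p = 0.00271. For this pair r was 0.849 without the 2 mice farthest from the Irgm1 median, and 0.771 in experiment 2 against 0.908 in experiment 1. The other 4 pairs were Irgm2 with Gbp7 (r = 0.831, rho = 0.721), Igtp with Gbp7 (0.745, 0.602), Irgm1 with Gbp7 (0.738, 0.602) and Irgm1 with Irgm2 (0.697, 0.579). By exact permutation they had adjusted p = 0.0449 for r (two-sided) and 0.0714 to 0.074 for rho (one-sided). Their r was 0.575 to 0.661 without the 2 mice farthest from the median of the pair's first gene. It was lower in experiment 2 (0.128 to 0.595) than in experiment 1 (0.838 to 0.952). Gbp2 had the weakest ties, between 0.12 and 0.408.

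The genes that are no members but followed them most closely over the 20 arrays were found by their correlation with the mean of the 7 genes, centred within experiment, as a description with no test. Of 11210 genes the closest were Ifit1 (r = 0.893) and Ifih1 (0.89), an interferon-induced inhibitor of viral translation and a sensor of viral RNA, followed by Usp18 (0.863), Gbp6 (0.857), Trim30a (0.841), Rtp4 (0.838), Trim30d (0.834) and Cmpk2 (0.83). Within experiment 2 these 8 genes had r between 0.561 and 0.802, and within experiment 1 between 0.888 and 0.97. Of the 8, 6 were on the list of type I interferon targets and Gbp6 was on the list of other immunity GTPases. A correlation of 0.7 or more was reached by 41 genes.

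The rest of the pathway was read from lists of genes, 1 probe set per gene. Over both experiments none of the genes on them passed in the high dose-rate comparisons with control, medium or low by limma, against 0.0624%, 0.0% and 0.00892% of all 11217 genes in the same order. Unadjusted p was below 0.05 for 7.16%, 3.84% and 10% of all genes, the shares against which the counts of each list are to be read, and the median differences over all genes were between -0.0057 and 0.0015. Among the 30 tested type I interferon targets, high was above control for 28 (median 0.429), above medium for 30 (0.289) and above low for 29 (0.334) over both experiments. The experiments differed in this: against medium, 9 of 30 were above 0 in experiment 2 (median -0.15) and 28 in experiment 1 (0.791), and against control, 20 in experiment 2 (0.135) and 29 in experiment 1 (0.686). Against low, 26 of 30 were above 0 in experiment 2 (0.365) and 28 in experiment 1 (0.341). The smallest unadjusted p values against control in that list belonged to 3 genes: Oasl1, an antiviral oligoadenylate synthetase-like protein, was 1.10 ± 0.35 above control (adjusted p = 0.350), Rtp4 was 1.09 ± 0.39 above (adjusted p = 0.428) and Ifi35 0.46 ± 0.18 above (adjusted p = 0.513). Unadjusted p was below 0.05 for 7, 7 and 11 of the 30 in the 3 comparisons.

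Interferon gamma targets other than the GTPases, which include chemokines and antigen-presentation genes, had 18 members tested. Of these, 16, 15 and 14 were above 0 against control, medium and low, with medians of 0.315, 0.102 and 0.089, and unadjusted p was below 0.05 for 1, 0 and 1. The value against low joined opposite ones, with 17 of 18 above 0 in experiment 2 (median 0.415) and 7 of 18 in experiment 1 (-0.132). RNA of the chemokine gene Cxcl11 was 0.65 ± 0.29 above control (adjusted p = 0.593) and 0.77 ± 0.21 above low (adjusted p = 0.160). The 13 tested genes of interferon gamma signalling had medians of 0.060, -0.0196 and 0.060, with unadjusted p below 0.05 for 2, 0 and 0. The MHC class I transactivator Nlrc5 was 0.70 ± 0.18 above control (adjusted p = 0.224) but -0.03 ± 0.13 against medium. Its difference from control was 0.32 ± 0.23 in experiment 2 (adjusted p = 1.00) and 1.08 ± 0.23 in experiment 1 (adjusted p = 0.0477), where it was 1 of 30 genes called (0.267% of all), each against a single pool. Ifng, the cytokine gene itself, was below the array median on all 20 arrays.

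Of the other immunity GTPases, 5 were tested, with medians of 0.0946, 0.119 and 0.131, and 0, 0 and 1 had an unadjusted p below 0.05. The 3 with the smallest p against control did not share a direction: Irgq was at 0.25 ± 0.15 (adjusted p = 0.716), Gm4951 at -0.20 ± 0.12 (adjusted p = 0.717) and Gbp6 at 0.65 ± 0.42 (adjusted p = 0.753). Gbp6 was 0.70 ± 0.30 above low (adjusted p = 0.423), and Irgq was at -0.20 ± 0.11 against medium (adjusted p = 0.999). The 15 genes of ubiquitin-like conjugation and autophagy that place these GTPases on membranes had medians of -0.0119, -0.00533 and -0.0163, with unadjusted p below 0.05 for 2, 1 and 1. Gabarapl1, of the family that guides GTPases to vacuoles, was at -0.39 ± 0.12 against control (adjusted p = 0.321).

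In bulk liver, fewer cells of a type and less RNA per cell cannot be told apart, so marker lists of liver cell types were read beside these values. Hepatocyte markers such as Alb and Apoa1 summed to 491700 to 639300 over 11 genes on every array, as the tissue label implies. Of 12 Kupffer cell and macrophage markers, 1 was above 0 in high minus low and the median was -0.133, with sums of 21480 to 32370 in high and 26320 to 30390 in low livers of experiment 2, and 25330 to 29860 in high and 25620 to 34400 in low livers of experiment 1. T cell markers summed to 520 to 717 in high and 395 to 495 in low livers of experiment 2, but to 479 to 672 in high and 840 to 904 in low livers of experiment 1, and Cd3d, Cd247 and Cd4 were below the array median on all arrays. Natural killer cell markers summed to 665 to 884 in high and 572 to 793 in low livers of experiment 2, and to 800 to 958 in high and 787 to 1342 in low livers of experiment 1, and Ncr1, Eomes and Tbx21 were below the array median on all arrays. Of 7 dendritic cell markers 3 were tested (Itgax, Batf3 and Zbtb46), and all 3 were above 0 in high minus low, with a median of 0.649 (0.664 in experiment 2, and 0.472 with 2 of 3 above 0 in experiment 1), and in high minus control (0.385). The 7 markers summed to 589 to 718 in high and 451 to 612 in low livers of experiment 2, and to 547 to 739 in high and 477 to 779 in low livers of experiment 1, and Xcr1 was below the array median on all arrays. B cell markers were above 0 for 4 of 4 in high minus control (median 0.58) and for 2 of 4 in high minus low (0.0258). They summed to 618 to 1435 in high livers, 548 to 920 in low livers and 526 in the pool of experiment 2, and to 649 to 778 in high livers, 781 to 847 in low livers and 447 in the pool of experiment 1. The part of any of these cells in the GTPase signals was not tested.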

How the data were processed

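Liver RNA on 20 Affymetrix arrays was used as the series' deposited value table. The values are intensity signals on a linear scale that the authors made with MAS5, per the submitters' processing notes, with no version given in the sources used here. Each array's trimmed mean was 500.0 (2% trimmed at either end) and its median 81.3 to 104.8. Probe sets were named from the platform annotation, and 64 array controls were left out, which left 45037. From the deposited intensity, log2(signal + 7.12) was computed, the added value being the 10th percentile of all signals, and 22519 probe sets with a mean of at least 84.7, the median, were tested. limma 3.58.1 (R 4.3.3; lmFit, eBayes with a variance trend) was fitted on 20 arrays with dose level and experiment, and with 8 groups for contrasts between experiments. The fit was tested on simulated data. For lists, 1 probe set per gene was used (not ending in _s_at or _x_at first, then the highest mean), and up to 3 genes per list were named by the smallest p in high against control. Mice of 1 number in different groups were not taken as pairs. Their deviations correlated by -0.15 to 0.318 (median 0.0561), and those of other numbers by -0.21 to 0.189 (median -0.0258). Whether mice shared a cage or litter is not given, and the number of arrays limits the precision. Of 190 pairs of arrays, 0 held identical values, and the correlation of log2(signal + 1) was 0.883 to 0.914. Members and lists were chosen with earlier results of these data known. Alternatives were the added value, the filter, 1 probe set per gene, median centring, quantile normalization, no trend, weighted pools, either experiment alone, a replicate block and leaving out each array.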

Additional observations from a re-analysis of the deposited data

Results flagged for a closer look

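For 9 results the mice of an irradiated group stood wholly on one side of their comparison group in experiment 2 and wholly on the other side in experiment 1. The difference between the experiments, as experiment 2 minus experiment 1 on the log2 scale, was tested by limma in each case and none passed after adjustment. Separation in opposite directions was met by 5 of 10 members for low against control (10.9% of all probe sets), 1 for medium against control (10.2%), 2 for high against control (10.7%) and 1 for medium against low (0.861%), and by 0 of 10 for high against medium (0.555%) and high against low (0.697%).

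Of these, 5 were low dose-rate livers against the control pool: Irgm2 at -0.94 (adjusted p = 1.00), Igtp at -0.63 (adjusted p = 1.00), Gbp2 1418240_at at -1.83 (adjusted p = 0.808), Gbp7 1425156_at at -1.33 (adjusted p = 0.917) and Gbp7 1434380_at at -0.53 (adjusted p = 1.00). In each, the 3 low mice were below the pool in experiment 2 and above it in experiment 1. Gbp7 1425156_at did the same at the medium dose-rate, with -0.92 (adjusted p = 1.00), and at the high dose-rate, with -1.41 (adjusted p = 0.633). High dose-rate livers did so for Iigp1 1419043_a_at, with -0.52 (adjusted p = 0.953). All 8 rest on the single pool array of each experiment.

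The remaining one does not involve the pools. Irgm2 in medium against low dose-rate livers differed by 0.84 (adjusted p = 0.386), with the medium mice above the low mice in experiment 2 and below them in experiment 1. Outliers within a group were not tested, since every group held 3 mice or a pool.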

How the results depend on the processing

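Of 369 counts of called members under an alternative, 363 equalled the reported count or were within 1.5 times of it. With the pools weighted by their mice, 2 members were called in high against control, 2 in its difference between experiments and 2 in that of low against control. In experiment 2 against experiment 1 the count was 2 of 7 with 1 probe set per gene, against 4777 of all 11217 genes. It was 1 of 10 with arrays centred on the median (9071 of all probe sets) and 4 to 5 leaving out each array (8852 to 9304). For medium against low, experiment 2 minus experiment 1, leaving out each array gave 0 to 1 (0 to 15 of all probe sets). The replicate block (mouse number, 18 irradiated arrays) called 0 members in high against medium, high against low and medium against low, and in their differences between experiments. It called 0 probe sets in high against low in place of 4, with Irgm1 at 0.50 (adjusted p = 0.238). A mouse correlated best with its own number in 21 of 36 comparisons, each among the 3 mice of another dose level. No paired analysis was possible against the controls because the pools carry no mouse number. Of 3651 member values, 139 changed sign, 13 gained a call and 3 lost one. Those that reversed from a reported value of over 1 SE were Iigp1 1419043_a_at in low against control (0.020 in experiment 1 alone, -0.29 to 0.018 leaving out each array) and in high against medium (-0.086 in experiment 2 alone), Gbp2 1418240_at in high against low (-0.16 in experiment 1 alone) and Gbp2 1435906_x_at in medium against low (0.12 in experiment 2 alone). The cause was not tested. Over all probe sets, calls numbered 855, 522 and 119 with weighted pools, in place of 13, 8 and 0, for high, medium and low against control.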
